A study of Mus musculus with 21 samples.

Results

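Stigmasterol, a plant sterol taken up with food, was compared with vehicle in the testes of wild-type mice on postnatal day 10, by RNA sequencing of 4 animals on each side. The 8 animals were chosen by their labels from the 21 of the study: T78, T98, T118 and T119 received stigmasterol, and T66, T71, T79 and T81 received vehicle. All mice of the study had a mixed strain background of 129sv and C57Bl6, each contributing 50%. The other groups used below were 4 wild-type mice given BPA (bisphenol A), and mice lacking FXRα, a receptor of bile acids whose gene is Nr1h4, given vehicle, BPA or stigmasterol (3 animals each). Every library came from 1 animal, taken on day 10 and sequenced on the same flowcell. The sources used here do not state the dose, the route and length of treatment, or the litters of the pups.

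Plant sterols enter cells beside cholesterol, and the transporter pair of Abcg5 and Abcg8 pumps them back out of gut and liver cells. Sterol-derived ligands activate the liver X receptors (LXR), which induce exporters such as Abca1 and Abcg1, while cell sterol is sensed through SREBP2, which drives the genes of cholesterol synthesis and uptake. Stigmasterol is also known as an antagonist of FXRα. At day 10 the mouse testis holds Sertoli cells, Leydig cells, peritubular myoid cells and spermatogonia, and the first germ cells are entering meiosis.

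The 8 libraries held 35459523 to 55605367 counted reads each, so that a count of 3 reads, taken as the floor, stood at 0.054 to 0.0846 CPM (reads of a gene per 1000000 counted reads). Reads of mitochondrial genes made up 1.69% to 2.14% of each library. Testis identity was plain in all 8: summed Sertoli cell markers lay at 8558 to 13230 CPM with vehicle and at 9127 to 11930 CPM with stigmasterol, and summed markers of Leydig cell steroidogenesis at 840 to 1402 and 791 to 1254 CPM. Cdh16, a cadherin of the epididymis and kidney named after its values were seen, stood at 17.6 CPM in the vehicle animal T81 and at 0.1 to 2.62 CPM in the other 7, so T81 stood apart. Nr1h4 itself was low in wild-type testis, at 0.351, 0.626, 0.536 and 0.639 CPM in T66, T71, T79 and T81 (vehicle) and at 0.547, 0.303, 0.582 and 0.56 CPM in T78, T98, T118 and T119 (stigmasterol). In the 9 knockout animals it lay between 0.172 and 0.492 CPM, overlapping the wild types. The sources used here do not state where the deletion lies, so the gene's total count does not check the labels. The leading principal component of the 8 libraries (38.5% of the variance) did not separate the treatments: vehicle animals spanned -32.2 to 43.4 and stigmasterol animals -45.7 to 36.9 on it.

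Of 20254 genes tested, 1 changed with stigmasterol in wild-type testis at an adjusted p under 0.05 (edgeR's quasi-likelihood test, 0.00494% of genes): Rpl31, a protein of the large ribosomal subunit, was lower. Among genes that did not reach that threshold the family recurred: 14 of the 20 genes with the smallest p-values, 42 of the 100 smallest and 53 of the 200 smallest encoded proteins of the cytosolic ribosome, a family of 77 tested genes. At an unadjusted p under 0.05, 777 genes were higher (3.84%) and 895 lower (4.42%), 1672 (8.26%) in all. DESeq2 called 84 genes, 25 higher and 59 lower, and 30 of the 84 were ribosomal protein genes. It gave no adjusted p to 8641 of the 20254 genes, so its calls rest on a smaller set than those of edgeR. The call of Rpl31 did not hold in every fit: its adjusted p was 0.978 with only the 8 animals in the fit, 0.216 with the 12 wild types, and 0.0222 to 0.156 when each of the 8 animals was left out in turn.

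Rpl31 (chromosome 1, 39367851 to 39371908 in the deposited table, on build mm10) stood at 166, 162, 168 and 161 CPM in T66, T71, T79 and T81 (vehicle). In T78, T98, T118 and T119, given stigmasterol, it stood at 135, 125, 125 and 128 CPM. Every stigmasterol animal was thus below every vehicle animal, with 4363 or more reads behind each value. The log2 fold change was -0.36 ± 0.05 (standard error, n = 4 against 4), a fall of 21.9%, with a 95% confidence interval of -0.46 to -0.25 and an adjusted p of 0.0174 by edgeR.

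**Figure D1:**
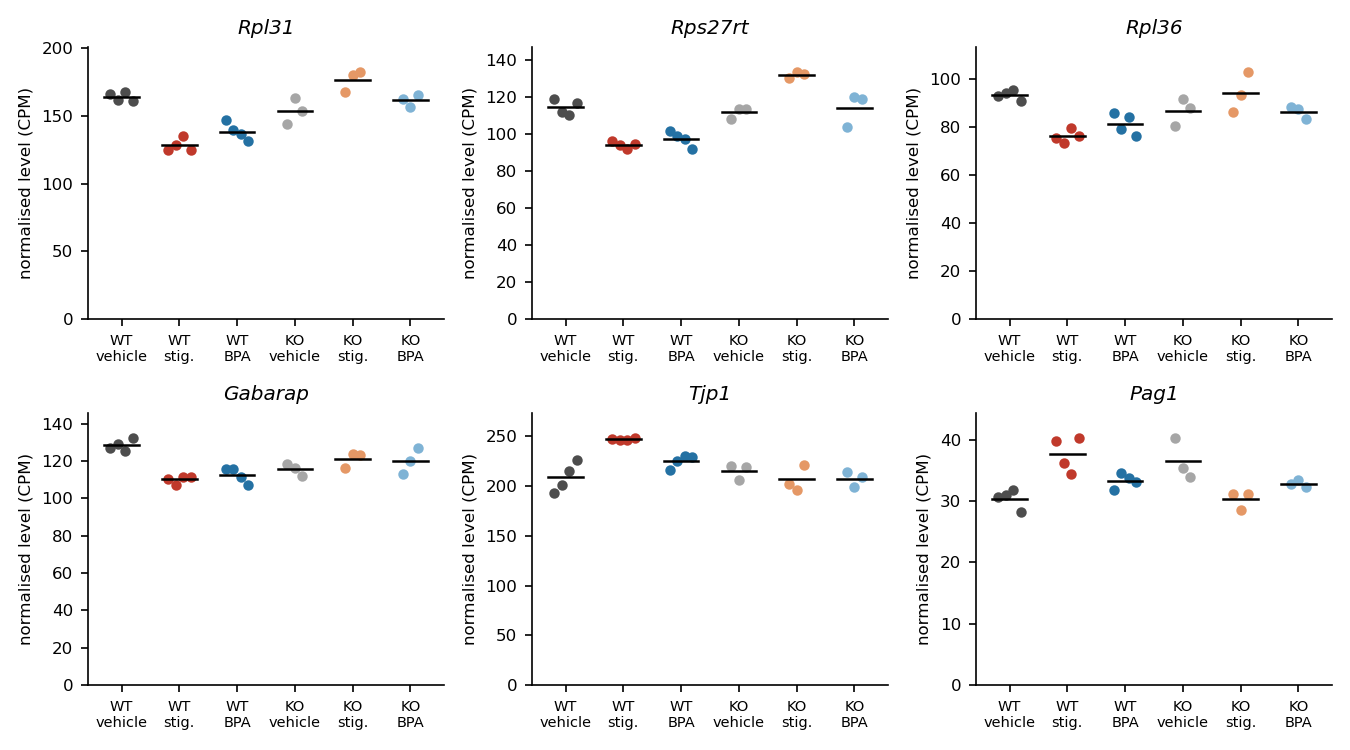
Normalised level (CPM) of 6 of the 20 genes with the smallest p at 1 CPM or more, with 1 point per animal and a black line at the group mean in wild-type (WT) and knockout (KO) mice given vehicle, stigmasterol (stig.) or BPA. The 4 stigmasterol wild types lie below all vehicle wild types for Rpl31, Rps27rt, Rpl36 and Gabarap and above them for Tjp1 and Pag1.

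The ribosome is built from a large and a small subunit, each holding ribosomal RNA and many proteins, most of them encoded by a single active gene. The mRNAs of these proteins begin with a run of pyrimidines (the 5′ terminal oligopyrimidine, or TOP, tract) through which growth signals control their translation as a group. Translation of a TOP mRNA can change without its level, and this study measured levels only.

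To show the starts of some of these genes, the 80 bases from 60 before to 20 after the RefSeq start (GRCm38.p6) were read for Rpl31, which was called, for Rps15, and for Rps27 and Rps27rt, which are near copies of each other. Each is written 5′ to 3′ on the gene's own strand, and capitals mark the letters CTTTCC, a pyrimidine run of the kind that opens TOP mRNAs.
Rpl31 (chr1:39367791-39367870, plus strand): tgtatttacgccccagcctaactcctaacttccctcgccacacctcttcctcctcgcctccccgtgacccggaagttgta
Rps15 (chr10:80292371-80292450, plus strand): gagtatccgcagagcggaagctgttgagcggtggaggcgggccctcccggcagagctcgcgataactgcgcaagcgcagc
Rps27 (chr3:90213629-90213708, minus strand): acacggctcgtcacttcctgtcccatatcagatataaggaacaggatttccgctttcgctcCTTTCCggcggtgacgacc
Rps27rt (chr9:114982720-114982799, minus strand): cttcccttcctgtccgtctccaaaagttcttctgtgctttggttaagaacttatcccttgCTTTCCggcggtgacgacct
The letters CTTTCC were found on the gene's strand in 13 of 67 such windows of ribosomal protein genes (19.4%; 57 of the 77 genes had an entry), against 1240 of 32851 windows of the whole table (3.77%). On the opposite strand they were found in 1 (1.49%) and 1112 (3.38%) windows. The match is a description of the letters only. Rpl31 and Rps15 have none in their windows, like most of the family's windows. The RefSeq and deposited starts differ for some genes. The deposited gene begins at 80292453 for Rps15 and, on the minus strand, at 90213615 for Rps27. Both windows thus lie outside the deposited genes, and the Rps15 window does not show the letters at its deposited start.

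All 77 cytosolic ribosomal protein mRNAs had a negative log2 fold change in wild-type testis, where 48.9% of all genes did. The median over the family was -0.24, or 15.1% lower, with a range of -0.36 to -0.10, and the median over all genes tested was 0.0046. Of the 77, 73 were lower at an unadjusted p under 0.05 (4.42% of all genes), and 61 had every stigmasterol animal below every vehicle animal (1.9% of all genes). The 46 large-subunit genes had a median of -0.24 and the 31 small-subunit genes one of -0.23. The genes lowest in fold change were Rpl31, Rpl24 (-0.34) and Rps21 (-0.34), and those nearest to 0 were Rps26 (-0.10) and Rpl3 (-0.11). Only Rpl31 passed the adjusted threshold by edgeR. All 77 were also negative with BPA in wild type against the same vehicle animals (median -0.19).

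Summed over the family, the level was 25086, 23322, 23917 and 23693 CPM in T66, T71, T79 and T81 (vehicle). It was 21460, 18829, 20244 and 21286 CPM in T78, T98, T118 and T119 (stigmasterol). The groups did not overlap; T98 was the lowest of all 21 animals and T66 the highest. Leaving out T98 brought the family's median to -0.20 and leaving out T66 to -0.21, and no member was above 0 in either case.

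**Figure D2:**
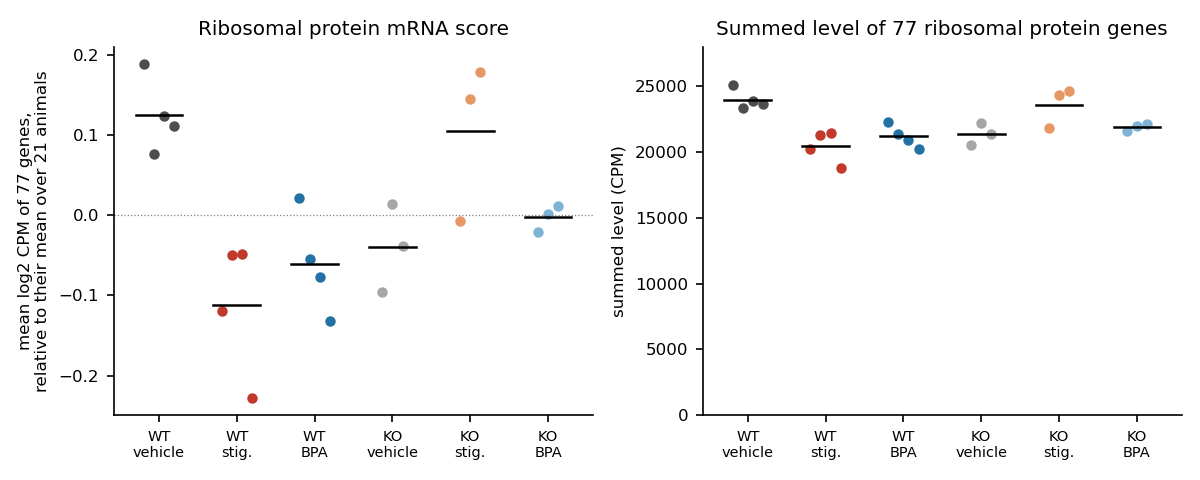
Left, the score of the 77 ribosomal protein genes (mean log2 CPM relative to their mean over 21 animals); right, their summed level in CPM, with 1 point per animal and a black line at the group mean. Wild-type vehicle animals lie at 0.08 to 0.19 on the score and wild-type stigmasterol animals at -0.23 to -0.05, while knockout stigmasterol animals lie at -0.01 to 0.18.

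Among the proteins of the large subunit, Rpl36 stood at 92.8, 94.1, 95.5 and 90.8 CPM with vehicle and at 79.5, 76.4, 75.2 and 73.4 CPM with stigmasterol, with the animals in the order given for Rpl31. Its log2 fold change was -0.29 ± 0.06 (n = 4 against 4; edgeR adjusted p = 0.205). Rpl17, Rpl37a, Rpl37, Rpl13a and Rpl19 had log2 fold changes of -0.28, -0.29, -0.30, -0.29 and -0.26, each with groups that did not overlap and the same adjusted p. The highest vehicle value of Rpl13a, 1017 CPM, belonged to T66.

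Among the proteins of the small subunit, Rps14 stood at 643, 629, 559 and 595 CPM with vehicle and at 503, 444, 467 and 518 CPM with stigmasterol (log2 fold change -0.33 ± 0.06; edgeR adjusted p = 0.205). Rps15 (-0.33), Rps27 (-0.32), Rps19 (-0.28) and Rps23 (-0.26) had the same adjusted p, and Rps20 (-0.28) and Rps27a (-0.26) had 0.22. Rps27a encodes a ribosomal protein fused to ubiquitin. None of these groups of animals overlapped. Rps27rt, a near copy of Rps27, stood at 119.1, 111.9, 110.4 and 116.5 CPM with vehicle and at 91.8, 94.8, 96 and 94.3 CPM with stigmasterol (log2 fold change -0.28 ± 0.05; edgeR adjusted p = 0.129). The longest transcripts of Rps27 and Rps27rt share 307 aligned bases at 100% identity, so how reads were divided between them is uncertain and they are not independent. Processed pseudogenes exist for most of this family, which makes the same doubt apply more widely. The 38 tested ribosomal protein pseudogenes had a median log2 fold change of -0.16, with 12 above 0 (51.1% of all genes).

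Other mRNAs of the translation machinery known to carry a TOP tract were gathered in a list of 22, written after values had been seen. Of these, 18 had a negative log2 fold change (48.9% of all genes), with a median of -0.13. At an unadjusted p under 0.05, 8 were lower (4.42% of all genes). Fau, whose protein is a ubiquitin-like moiety fused to a ribosomal protein, stood at 192, 175, 171 and 177 CPM with vehicle and at 155, 127, 146 and 161 CPM with stigmasterol (-0.28 ± 0.07; edgeR adjusted p = 0.333). Gnb2l1, the ribosome-bound scaffold also called Rack1, had -0.21 ± 0.06, the elongation factor subunit Eef1b2 -0.22 ± 0.07 and the growth-related Tpt1 -0.26 ± 0.09. The elongation factors Eef1a1 (-0.13 ± 0.07) and Eef2 (-0.05 ± 0.06) and the nucleolar Npm1 (-0.04 ± 0.06) were nearer to 0, and Pabpc1, the poly(A)-binding protein, was at 0.07 ± 0.05. The 77 mitochondrial ribosomal protein genes, which form a separate ribosome inside mitochondria, had a median of -0.10 and no call by edgeR. Among them, 72 were below 0 (48.9% of all genes) and 21 were lower at an unadjusted p under 0.05 (4.42% of all genes). DESeq2 called Mrpl11, a protein of the large subunit of the mitochondrial ribosome (log2 fold change -0.24, adjusted p = 0.0393). With BPA in wild type against the same vehicle animals, the mitochondrial family had a median of -0.18, with 74 of 77 below 0. The list of 22 TOP mRNAs had a median of -0.09 there, with 16 below 0.

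Among genes with a conventional symbol at 1 CPM or more, the 20 of smallest p held Gabarap, Tjp1 and Pag1 beside 17 ribosomal protein genes, Rps27rt included. Gabarap, an autophagy protein of the LC3 family, stood at 127, 129, 125 and 132 CPM with vehicle and at 112, 111, 110 and 107 CPM with stigmasterol (-0.22 ± 0.04; edgeR adjusted p = 0.205). Tjp1, the tight junction protein ZO-1, stood at 193, 201, 215 and 226 CPM with vehicle and at 246, 249, 247 and 247 CPM with stigmasterol, where the 4 values lay close together above all vehicle values (0.24 ± 0.05; edgeR adjusted p = 0.205). Pag1, a membrane adaptor that holds the kinase Csk, stood at 30.6, 31, 31.8 and 28.2 CPM with vehicle and at 34.5, 40.3, 39.8 and 36.2 CPM with stigmasterol (0.31 ± 0.07; edgeR adjusted p = 0.205). Of all genes, 312 (1.54%) had every stigmasterol animal above every vehicle animal. For Gabarap, every BPA wild type and every knockout vehicle animal also lay below all wild-type vehicle animals. For Pag1 they all lay above them. A wild-type vehicle group that stood apart and a change with stigmasterol cannot be told apart for Gabarap and Pag1. For Tjp1, knockout vehicle animals lay within the wild-type vehicle range, and BPA wild types overlapped it.

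Some further genes were named after their values were seen. Pde4d, a cAMP phosphodiesterase, stood at 5.64, 4.58, 5.32 and 5.94 CPM with vehicle and at 6.06, 11, 10.2 and 16.6 CPM with stigmasterol. T78 lay just above the vehicle animals and T119 far above them (log2 fold change 1.03 ± 0.23; edgeR adjusted p = 0.266). Adam9, a membrane metalloprotease, had 0.30 ± 0.07 (adjusted p = 0.256), and Ifi35, an interferon-induced gene, had -0.41 ± 0.09 (adjusted p = 0.269), both by edgeR and both with groups that did not overlap.

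**Figure D3:**
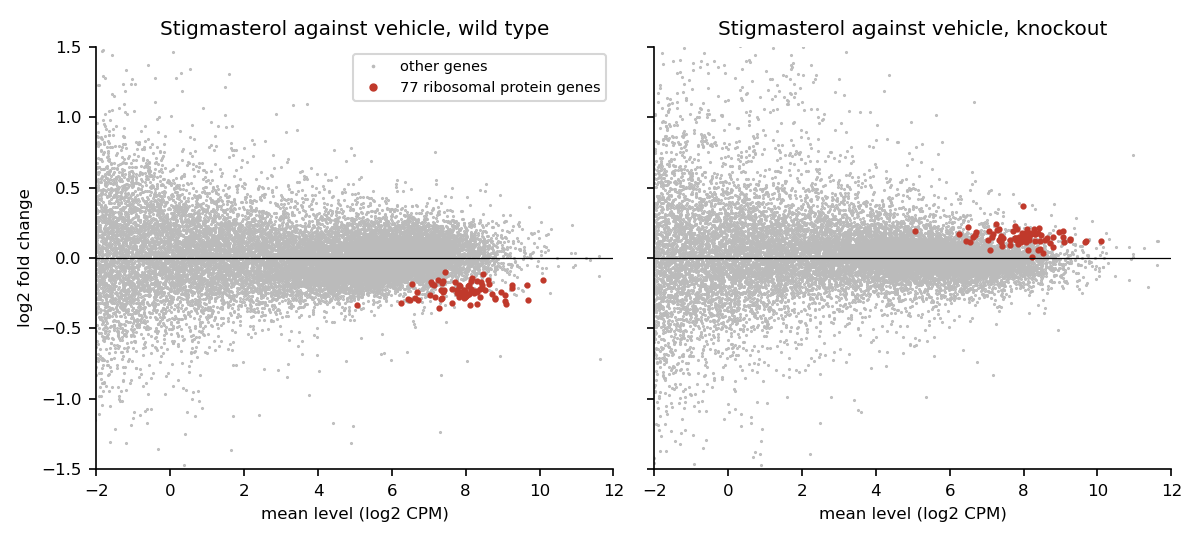
Log2 fold change of stigmasterol against vehicle (vertical axis, shown from -1.5 to 1.5) by mean level (log2 CPM, horizontal axis, from -2 to 12) for each gene tested, in wild type on the left and in knockout on the right. The 77 ribosomal protein genes in red lie below 0 in wild type (median -0.24) and above 0 in knockout (median 0.14).

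In knockout testis, where stigmasterol and vehicle animals shared no library with the wild-type comparison, edgeR called 0 of 20254 genes (0%), with 779 (3.85%) at an unadjusted p under 0.05, 498 higher (2.46%) and 281 lower (1.39%), and DESeq2 called 1. All 77 ribosomal protein genes had a positive log2 fold change there, where 51.8% of all genes did, with a median of 0.14, and 33 were higher at an unadjusted p under 0.05. The summed level was 20574, 21418 and 22247 CPM in knockout vehicle animals T1, T90 and T110 and 21821, 24339 and 24675 CPM in knockout stigmasterol animals T10, T15 and T93. T10 lay among the vehicle animals, so these groups overlapped.

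The difference between the genotypes was tested as an interaction. It was called for 2 genes (0.00987%), with 1855 (9.16%) at an unadjusted p under 0.05: Rpl31, at -0.56 ± 0.08 (edgeR adjusted p = 0.012), and Rps27rt, at -0.52 ± 0.08 (edgeR adjusted p = 0.0151). Rpl17 had -0.48 and Pag1 0.58, each with an edgeR adjusted p of 0.0761. All 77 ribosomal protein genes had a negative interaction (50.7% of all genes), 75 of them at an unadjusted p under 0.05 (5.05% of all genes), with a median of -0.39. Knockout Rpl31 stood at 144, 154 and 163 CPM with vehicle and at 168, 180 and 183 CPM with stigmasterol, so its direction was opposite to that in wild type. Both calls were absent when 1 of several animals was left out (T1 or T90 of knockout vehicle, T15 or T93 of knockout stigmasterol). DESeq2 called 136 genes, 47 of them ribosomal protein genes, and gave no adjusted p to 7072 genes. Genotype and the strain variants that go with it cannot be told apart in this test, since 12 genes were read in all animals of 1 genotype and were near 0 in all of the other.

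The place of the vehicle animals among all groups bears on these values. On the ribosomal protein score, wild-type BPA animals lay at -0.13 to 0.02, knockout vehicle animals at -0.10 to 0.01 and knockout BPA animals at -0.02 to 0.01, all below the wild-type vehicle animals (0.08 to 0.19). Wild-type stigmasterol animals (-0.23 to -0.05) overlapped the wild-type BPA and knockout vehicle ranges. For Rpl31, BPA wild types stood at 147, 139, 137 and 131 CPM in T60, T61, T74 and T75. T75 lay within the stigmasterol range, below T78, and the other 3 lay between the vehicle and the stigmasterol animals. A high vehicle group and a low stigmasterol group cannot be told apart from these animals.

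Against BPA in wild type, edgeR called 0 genes (0%) for stigmasterol, with 2746 (13.6%) at an unadjusted p under 0.05 and a smallest adjusted p of 0.105, while DESeq2 called 348. Of the ribosomal protein genes, 71 had a negative difference (50.8% of all genes) and 2 were lower than with BPA at an unadjusted p under 0.05 (6.45% of all genes), with a median of -0.06. Set beside vehicle, which both treatments share, the family's median was -0.24 with stigmasterol and -0.19 with BPA. With each treatment all 77 members were below 0. Of the 20254 genes tested, 9677 were below 0 with BPA. The 5 genes with the smallest p for the difference were Adam9 (0.38 ± 0.07 higher with stigmasterol on the log2 scale), the chromatin reader Jade1 (0.33 ± 0.05), the cytokinesis regulator Racgap1 (0.26 ± 0.05), the tubulin Tuba1a (0.52 ± 0.10) and the carbonic anhydrase Car9 (-1.15 ± 0.21), each with an edgeR adjusted p of 0.105. Against vehicle, Adam9 stood at 0.30 with stigmasterol and -0.09 with BPA, Tuba1a at 0.13 and -0.39, and Car9 at -0.22 and 0.94. Leaving out stigmasterol animal T78 raised the count of calls against BPA to 270. Epididymis-type markers differed among these animals, with scores of 1.47 and 1.63 in BPA animals T60 and T75 and -1.20 and -1.30 in T61 and T74, and summed liver markers reached 1127 CPM in T61; their part in the difference was not tested.

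No gene of sterol handling was called. Of 27 genes of cholesterol synthesis and SREBP2 targets, 12 had a positive log2 fold change (51.1% of all genes did) and 15 a negative, with a median of -0.01. Hmgcs1, which makes HMG-CoA for the pathway, stood at 393, 301, 408 and 505 CPM with vehicle and at 437, 359, 456 and 516 CPM with stigmasterol, and the groups overlapped. Its log2 fold change was 0.14 ± 0.13 (95% confidence interval -0.13 to 0.41). The SREBP genes Srebf2 and Srebf1 had -0.02 ± 0.08 and -0.04 ± 0.10. Pmvk, a kinase of the pathway, had the smallest p of the list (-0.19 ± 0.09; edgeR adjusted p = 0.591).

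Of 23 genes of LXR signalling, sterol export and plant sterol transport, 12 were positive (51.1% of all genes) and 11 negative (median 0.04). The cholesterol exporter Abca1 stood at 271, 307, 252 and 381 CPM with vehicle and at 357, 317, 321 and 355 CPM with stigmasterol, where T81 of the vehicle group was the highest of the 8 (0.16 ± 0.12, 95% confidence interval -0.09 to 0.40). Abcg1, its partner in export, had -0.23 ± 0.14, with 39.6 CPM in T81 and 21.9 to 31 CPM in the other 7 animals. The plant sterol transporter genes were barely read: Abcg5 lay at 0.134 to 0.399 CPM with vehicle and 0.0649 to 0.203 CPM with stigmasterol, and Abcg8 at 0 to 0.224 and 0.0589 to 0.243 CPM. Acaca, which makes malonyl-CoA for fatty acid synthesis, had the smallest p of the list (0.25 ± 0.08; edgeR adjusted p = 0.389).

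Among FXRα and its bile acid targets, 14 of 20 listed genes were measurable. Of these, 5 were positive (51.1% of all genes) and 9 negative (median -0.07, and 0.054 without T98). None reached an unadjusted p under 0.05. Nr0b2 (SHP), the classical FXRα target, stood at 1.89, 1.63, 2.57 and 3.59 CPM with vehicle and at 2.29, 1.3, 1.09 and 2 CPM with stigmasterol (-0.54 ± 0.27, 95% confidence interval -1.09 to 0.02; edgeR adjusted p = 0.628). The groups overlapped, and T81 was the highest.

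Leydig cell steroidogenesis showed wide spread between animals and no call. Of 16 genes, 7 were positive (51.1% of all genes) and 9 negative (median -0.07, and 0.02 without T81). Star, which carries cholesterol into mitochondria, stood at 24, 30.2, 46.6 and 78.1 CPM with vehicle and at 37.5, 56.5, 55.1 and 77.2 CPM with stigmasterol (0.34 ± 0.34). Cyp11a1, the side-chain cleavage enzyme, had 0.18 ± 0.18, and Cyp17a1, which makes androgen precursors, had 0.49 ± 0.53, with 184 CPM in vehicle animal T81 and 179 CPM in stigmasterol animal T119. In each group a single animal (T81 and T119) led the 3 genes. The estrogen receptor gene Esr1 (0.07 ± 0.17) overlapped between groups. In whole testis, fewer cells of a type and less RNA per cell cannot be told apart.

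Sertoli cell markers had a median of -0.10 (0.039 without vehicle animal T81), with 6 of 26 positive (51.1% of all genes) and none called. At an unadjusted p under 0.05, 2 were lower (4.42% of all genes). The homeobox gene Rhox8 had -0.27 ± 0.11 and Ptgds, a prostaglandin synthase, -0.79 ± 0.35. Among 19 measured genes of the junctions of the blood-testis barrier, Tjp1 was the only member at an unadjusted p under 0.05, and the list's median was 0.02. Ctnna1, which ties cadherins to actin, had 0.08 ± 0.05. Of 29 genes of collagens and basement membrane, 27 were positive (51.1% of all genes) with a median of 0.13. The median log2 fold change of collagens and basement membrane was -0.021 without stigmasterol animal T78, 0.0093 without vehicle animal T71, 0.033 without T66, 0.26 without T81, and -0.20 with the long-gene level as a covariate. The score was -0.52 and -0.66 in vehicle animals T66 and T71 and 0.08 and 0.15 in T79 and T81. Col18a1 lay at 508 to 560 CPM with vehicle and 579 to 715 CPM with stigmasterol without overlap (0.30 ± 0.09; edgeR adjusted p = 0.389), and the elastin gene Eln had 0.48 ± 0.24.

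The 31 measured meiotic prophase genes had the largest median among the germ cell lists (0.28). Of these genes, 28 were positive (51.1% of all genes), yet none reached an unadjusted p under 0.05. The median log2 fold change of meiotic prophase genes was -0.12 without T98, 0.087 without T81 and 0.57 without T66, so its direction rested on single animals. Their score lay at 0.54, 0.17, -0.42 and -1.03 in T66, T71, T79 and T81 (vehicle) and at -0.82, 0.92, 0.43 and -0.51 in T78, T98, T118 and T119 (stigmasterol). Both groups thus held animals with high and with low meiotic content. Sycp3, of the synaptonemal complex, ran from 20 to 86.1 CPM with vehicle and from 26.3 to 128 CPM with stigmasterol (0.41 ± 0.50), and without T98 its log2 fold change was -0.11. Stra8, the gatekeeper of meiotic entry, had -0.01 ± 0.30, and Kit, the receptor of differentiating spermatogonia, 0.19 ± 0.09 (edgeR adjusted p = 0.603). The stem cell markers Zbtb16 (0.12 ± 0.15) and Gfra1 (-0.03 ± 0.22) overlapped between groups. With the meiotic score as a covariate, the ribosomal protein median was -0.23.

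**Figure D4:**
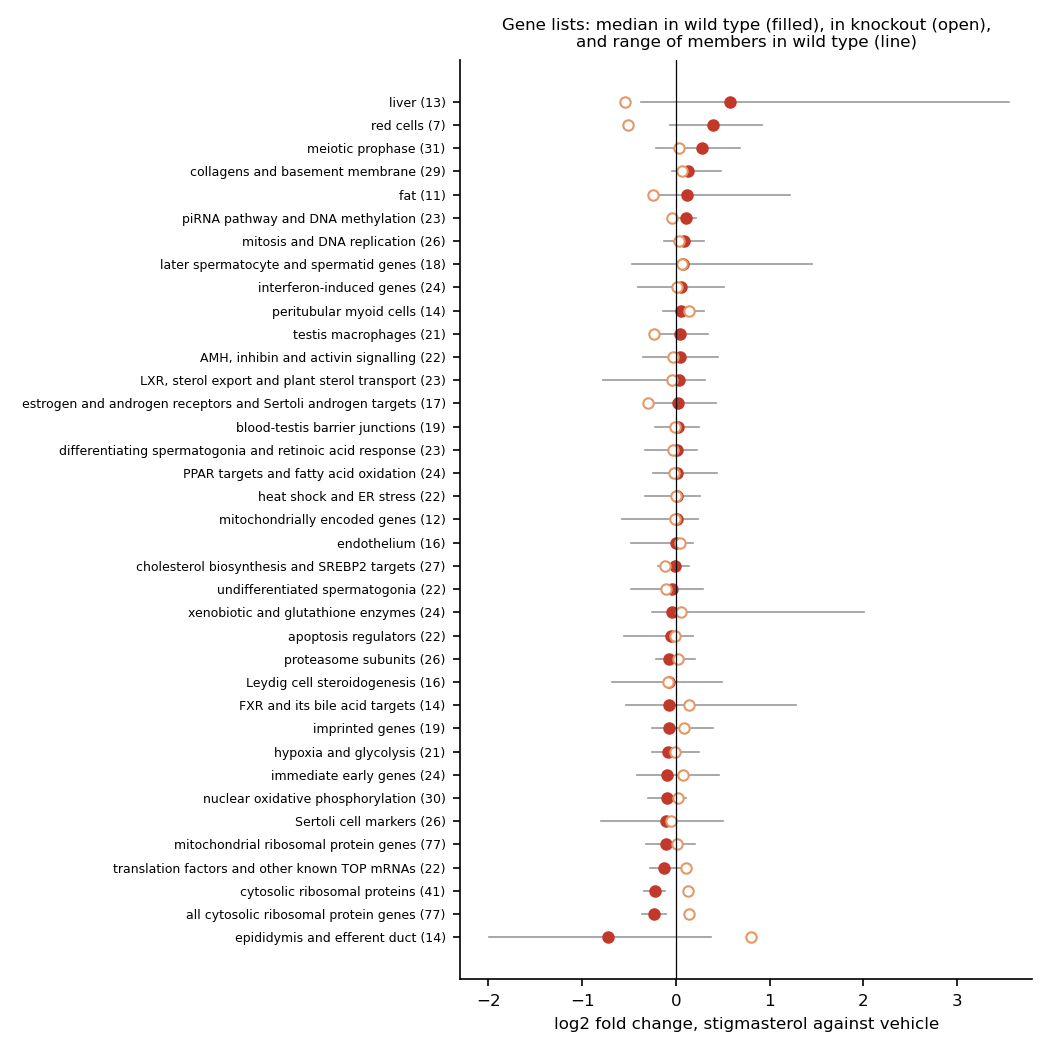
Median log2 fold change of stigmasterol against vehicle for each gene list in wild type (filled) and knockout (open), with a line over the range of the members in wild type and the number of genes tested in parentheses. The cytosolic ribosomal protein lists have medians of -0.23 and -0.24 and ranges wholly below 0, whereas most other lists straddle 0.

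Several housekeeping lists of short, abundant mRNAs leaned the same way as the ribosomal proteins, with smaller medians. Of 30 nuclear genes of oxidative phosphorylation, 27 were negative (48.9% of all genes; median -0.10) and 9 were lower at an unadjusted p under 0.05 (4.42% of all genes), led by the complex I subunit Ndufa2 (-0.30 ± 0.07) and the cytochrome oxidase subunit Cox7c (-0.21 ± 0.06). Of 26 proteasome subunits, 19 were negative (median -0.07) and 6 were lower at an unadjusted p under 0.05, with the catalytic Psmb6 at -0.20 ± 0.06, while the regulatory Psmd1 was at 0.21 ± 0.06. None of these was called by edgeR. DESeq2 called Ndufa2 (adjusted p = 0.0353). The lean was not particular to stigmasterol. With BPA in wild type against the same vehicle animals, the oxidative phosphorylation median was -0.20, with 29 of 30 negative. The proteasome median was -0.11 there, with 24 of 26 negative.

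Gene length moved with the fold change across the whole table. By the length in the deposited table, the median log2 fold change in wild type, without the cytosolic ribosomal protein genes, was -0.02 under 0.5 kb, -0.04 from 0.5 to 1 kb, -0.02 from 1 to 2 kb, 0.03 from 2 to 4 kb, 0.07 from 4 to 6 kb and 0.13 over 6 kb. The median length of the ribosomal protein genes was 0.643 kb. At 16 CPM or more, the median was -0.10 under 0.5 kb and -0.04 from 0.5 to 1 kb, beside -0.24 for the ribosomal protein genes. The 617 genes over 6 kb had medians, relative to the vehicle mean, of -0.11, -0.05, 0.11 and 0.08 in T66, T71, T79 and T81 (vehicle) and of 0.22, 0.12, 0.08 and 0.06 in T78, T98, T118 and T119 (stigmasterol). These groups overlapped, unlike the ribosomal protein levels. In knockout the trend ran the other way, from 0.02 under 0.5 kb to -0.05 over 6 kb, as the ribosomal protein median did (0.14). With BPA in wild type, genes over 6 kb had a median of 0.15. At 16 CPM or more, the BPA median was -0.19 under 0.5 kb and -0.07 from 0.5 to 1 kb. The latter class holds the median ribosomal protein length, and the ribosomal protein median with BPA was -0.19. With the level of genes over 6 kb as a covariate, the ribosomal protein median for stigmasterol in wild type was -0.20. In that fit 0 of 77 members were above 0, and the edgeR adjusted p of Rpl31 was 0.143. With this covariate calls were also counted for the interaction, where they fell to 0. The ribosomal protein medians of the genotype and BPA comparisons were not taken with it. The part of the length trend in those medians was not tested.

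**Figure D5:**
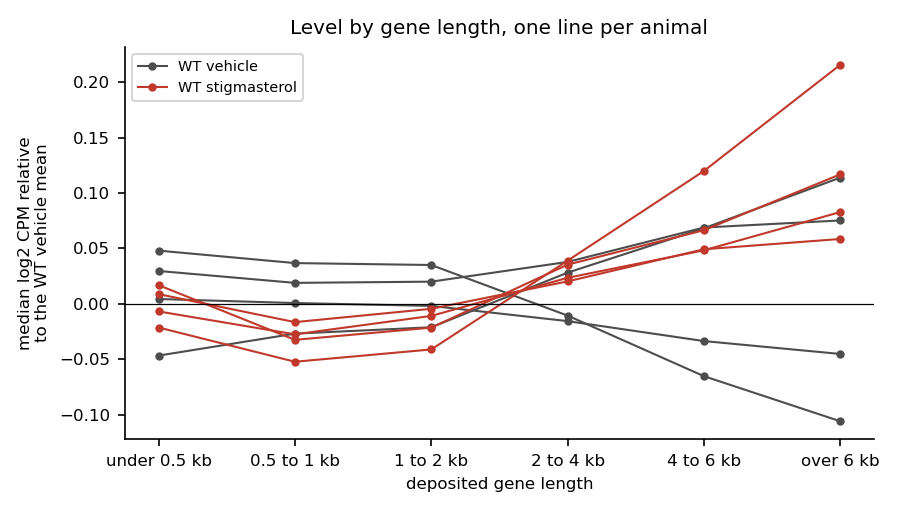
Median log2 CPM of genes in 6 classes of deposited length, relative to the wild-type vehicle mean, with 1 line per wild-type animal given vehicle (grey) or stigmasterol (red). Over 6 kb the 4 stigmasterol animals lie at 0.06 to 0.22, vehicle animals T79 and T81 beside them (0.11 and 0.08), and T66 and T71 below 0 (-0.11 and -0.05).

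Markers of tissues beside the testis varied between single animals. The epididymis list had a median of -0.72 in wild type, with 12 of 14 negative (48.9% of all genes), and 0.30 without vehicle animal T81. Its score was 0.70 in vehicle animal T81, -0.25 in stigmasterol animal T98, and -1.99 to -1.66 in the other vehicle animals. With libraries of 10 CPM or more for Cdh16 left out (T81 among the 8), the ribosomal protein median was -0.25 with 0 of 77 above 0. Summed liver markers lay at 14.7 to 16.6 CPM with vehicle and 14.7 to 19.4 CPM with stigmasterol, and summed red cell markers at 22.6 to 95.9 and 46.9 to 135 CPM. The macrophage list (median 0.05) and the interferon-induced list (median 0.06) were near 0, and no member was called.

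The authors' deposited table gives its own test of the same comparison and lists 18 genes at an adjusted p of 0.05 or less, 2 higher and 16 lower. In the authors' deposited table, 8 of the 18 are cytosolic ribosomal protein genes, among them Rpl31 (log2 ratio -0.35), Rps14 (-0.33), Rps15 (-0.32), Rps27 (-0.31), Rpl37a (-0.29), Rpl36 (-0.29) and Rps7 (-0.24). The 2 higher genes in the authors' deposited table are Tjp1 (0.25) and the mitochondrial tRNA gene mt-Tr (1.39). The remaining lower genes of the authors' deposited table are Rps27rt (-0.28), Gabarap (-0.22), Prelid1 (-0.19), Tm2d3 (-0.29), Ifi35 (-0.41), Rasl11a (-0.56), the predicted gene AY036118 (-0.98) and the RNase P RNA Rpph1 (-2.68). For the same comparison in knockout, 6 genes are listed in the authors' deposited table.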

How the data were processed

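Total RNA of 21 testes was made into TruSeq RNA libraries, a kit that does not keep strand. Per the submitters' processing notes, TopHat2 2.0.10, Bowtie2 2.1.0, Bowtie and CASAVA 1.8.2 were used with mm10; no counter or annotation is named in the sources used here. The deposited table holds raw read counts per gene, which were used here. Its other columns are a normalised signal (the authors divided counts by 1 size factor per library, and also by gene length in kb), log2 ratios and p-values of the authors' own comparisons. Gene length was taken as the ratio of the deposited normalised columns.

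Counts of all 21 libraries were fitted together in 6 groups with edgeR 4.0.16 (R 4.3.3; TMM factors; filterByExpr with a minimum count of 10 and total of 15, keeping 20254 of 32643 genes; quasi-likelihood test, two-sided; Benjamini-Hochberg adjustment over all genes; 0.05). Levels are CPM with TMM factors, and scores use log2 CPM with a prior count of 2. The coefficient of variation between animals was 19.2%, with 15 residual degrees of freedom. Replicate libraries differed beyond counting noise (chi-square per degree of freedom 15.2 to 75.8), so none is a duplicate. Fits were tested on simulated data, with 50 genes at 16 CPM or more changed at each size. edgeR called 10% of 1.2-fold changes, 80% of 1.5-fold, 94% of 2-fold and 100% of 4-fold. It made 8 false calls over 20062 genes tested. Alternatives used DESeq2 1.42.0, limma 3.58.1 (voom), other scalings, filters, samples and covariates; the long-gene covariate was chosen after seeing the data.

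The genes named are the 20 of smallest p with a conventional symbol and 1 CPM or more, a fixed set of sterol, steroid and germ cell genes, the 5 of smallest p for the interaction and against BPA, and members of smallest p of each list. Members and lists were chosen with earlier results of these data known. A few named genes are not reported here.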

Additional observations from a re-analysis of the deposited data

Results flagged for a closer look

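The groups of 4 were searched for an animal far from the other 3, in 174 groups of values (named genes and list scores, vehicle and stigmasterol separately); chance flags about 1 in 20 such groups, and 14 were found. Some of the genes, Cdh16 and Rasl11a among them, were named after their values were seen, and the groups share the same animals. The 14 can therefore not be weighed against that rate. Vehicle animal T81 accounts for 7 of the 14. It stood alone for Cdh16 (17.6 CPM against 0.1 to 0.38 in the other vehicle animals), Abcg1 (39.6 against 27 to 28.5), Kit (106 against 138 to 139), the GTPase-family gene Rasl11a (21.9 against 18.7 to 18.9), and the scores of the epididymis list (0.70 against -1.99 to -1.66), Leydig cell steroidogenesis (0.51 against -0.17 to -0.13) and barrier junctions (0.14 against -0.06 to -0.04). In the same group, T66 stood alone for Rpl13a (1017 CPM against 898 to 914) and T71 for the liver score (-1.32 against -0.77 to -0.66).

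Among stigmasterol animals, T98 stood alone for Rasl11a (9.81 CPM against 14.3 to 14.4) and Nr1h4 (0.303 against 0.547 to 0.582), T119 for Cyp17a1 (179 against 84.4 to 94.8), and T78 for Zbtb16 (105 against 69 to 72.4) and Srebf2 (331 against 273 to 282).

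A difference between wild type and knockout was called by the interaction test of edgeR for Rpl31 (-0.56) and Rps27rt (-0.52). Both calls were absent when certain single animals were left out and in several other fits, as given above and below.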

How the results depend on the processing

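No paired analysis was possible because the animal numbers are not shared between groups. The ribosomal protein median in wild type stayed between -0.26 and -0.20 under all its alternatives, with 0 of 77 members above 0 in each. Counts of calls depended on the fit. DESeq2 gave 84 in wild type, 1 in knockout, 136 for the interaction and 348 against BPA. In the same order, it gave no adjusted p to 8641, 13, 7072 and 1191 genes. Calls in wild type and for the interaction fell to 0 with no count filter, with only the groups compared, without the Cdh16 libraries and with the long-gene covariate, and in wild type also with only the wild-type libraries. Knockout gave 1, 2 and 3 calls with only its groups, without the Cdh16 libraries and with the meiotic covariate, which also gave 25 for the interaction and 34 against BPA. The cause was not tested. Leaving out 1 animal at a time gave 0 to 1 calls in wild type (1 only without T78), 0 to 1 in knockout (1 without T10 or T15), 0 to 11 for the interaction (11 without T10) and 0 to 270 against BPA (270 without T78, 17 without BPA animal T74).

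Of 2417 values of 116 named genes under these alternatives, 33 in 15 genes changed sign. With the long-gene covariate these were Egfl7 (0.017), Itga8 (-0.16), Cyp27a1 (0.0067), Zbtb16 (-0.079), Mylk (-0.094), Esr1 (-0.023) and Stra8 (0.45). Others were Cdh16 (0.23 by limma-voom, 2.09 without the Cdh16 libraries), Srebf1 (0.027 without them), Srebf2 (0.0019) and Gfra1 (0.017) with the meiotic covariate, and Stra8 (0.0088) with the epididymis covariate. Leaving out 1 animal gave ranges across 0 for Abcg8 (-0.18 to 0.98), Car3 (-0.92 to 1.84), Cdh16 (-2.85 to 2.07), Esr1 (-0.0072 to 0.19), Gfra1 (-0.29 to 0.20), Nr1h4 (-0.27 to 0.071), Srebf1 (-0.12 to 0.032), Srebf2 (-0.088 to 0.024), Stra8 (-0.23 to 0.21), Sycp3 (-0.11 to 0.80) and Zbtb16 (-0.043 to 0.27). Genes near the floor, such as Abcg5 and Abcg8, could not show a difference at this depth.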

Other observations

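A search made after the values were seen looked for genes read in some animals and near 0 in others (a gap of over 3 on the log2 scale, 0.7 CPM or less in the low animals, a median of 2 CPM or more in the high ones, at least 3 animals on each side). It found 39 genes among the 21 animals, 33 of them pseudogenes or predicted genes. For 12 of them all 12 wild types lay on the opposite side from all 9 knockouts. For 10 the 8 wild-type vehicle and stigmasterol animals were mixed, and for 0 did the treatments separate fully.

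Rpl3-ps1, an X-linked ribosomal protein pseudogene, and Gm3555, a pseudogene on chromosome 1, came nearest, in opposite directions. Gm3555 was on the high side in 0 vehicle, 3 stigmasterol and 1 BPA wild types, and in all knockouts. Rpl3-ps1 stood at 8.73, 13.1 and 25.6 CPM in vehicle animals T66, T79 and T81 and at 0.0752 CPM in T71, with 3 reads. In T78, T98, T118 and T119 (stigmasterol) it had 5, 2, 2 and 2 reads. In the other groups BPA animal T75, knockout vehicle animal T1 and knockout stigmasterol animal T93 were low (1, 6 and 5 reads), and the remaining 10 animals lay at 9.83 to 24.9 CPM. All 4 stigmasterol wild types thus fell on the low side at Rpl3-ps1, as did 1 of 4 vehicle wild types. The sources used here name no litters, and the part of shared parentage in the comparison was not tested.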
